A study of Schizosaccharomyces pombe with 20 samples.

Results

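The genes described here lie at the 2 ends of chromosome 1 of the fission yeast Schizosaccharomyces pombe. They are the 97 genes, of 5098 with an exon probe, whose systematic names carry the prefix of 1 of 8 cosmids, the large cloned inserts from which these chromosome ends were sequenced. The choice used the name alone and no measured value. From the tip inward, the left end held SPAC212 with 11 members, SPAC977 with 17, SPAC11D3 with 17 and SPAC5H10 with 14, and the right end held SPAC750 with 8, SPAC186 with 9, SPAC869 with 11 and SPAC1039 with 10. The RefSeq gene table of assembly ASM294v3 listed 96 of them, all within 71 annotated genes of a chromosome end, and SPAC5H10.14c was not in it. A gene symbol was given for 35 members, and 5 members, 4 of them on SPAC212, are annotated as pseudogenes.

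Chromosome ends of fission yeast are held in a silent state by proteins that bind the telomere repeats, by methylation of histone H3 at lysine 9 and by HP1 proteins that bind this mark. The histone variant H2A.Z and the Set1 complex, which methylates histone H3 at lysine 4, are also known to affect expression near telomeres. The genes found there include the telomere-linked RecQ-type helicases, cell surface flocculins, permeases and exporters, and many have a close copy at another chromosome end. In strains that lose silencing, RNA of such genes becomes more abundant, most of all that of the telomere-linked helicases.

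RNA of 12 haploid deletion strains, each with a KanR cassette in place of the named gene, was set against RNA of wild type ED666 on 20 arrays, with the deletion strain in Cy3 and wild type in Cy5 on each. The strains lacked pht1 (H2A.Z), ash2 or swd1 (Set1 complex), SPAC18G6.13 or ctr1 (copurified with RNA elimination complexes), SPAC20H4.06c (homolog of human GPATCH1), ppn1 or ssu72 (3′ end processing), aar2, pwi1 or smd3 (splicing), or SPCC162.01c (homolog of human SNRNP27). Separately grown biological replicates gave a pair of arrays for 8 strains, while Δpht1, Δash2, Δswd1 and ΔSPCC162.01c had 1 array each. All strains and wild type grew in 25 ml of rich YES medium at 30 °C to an A600 of about 0.5. Each value is a deposited log2 ratio, deletion strain over wild type, of an exon probe for total mRNA, so that a value of 1 is a doubling. As dyes were not exchanged, a difference shared by all strains cannot be told apart from a dye effect of the probe, nor a change per cell from a change in the share of cells that express a gene.

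Between 4393 and 5027 exon probes had a value on an array, and 54 members had one on all 20 arrays while 12 had one on fewer than 10. The deleted gene read between -6.45 and -1.19 on 14 arrays. The weakest of these, -1.19, was pht1 on the Δpht1 array, where the lowest value of pht1 in another strain was -0.86. On the other 6 arrays the deleted gene was not clearly low. The arrays labelled Δsmd3 read -0.50 and -0.93 for smd3, those labelled ΔSPAC18G6.13 read -0.41 and -0.26 for that gene, the array labelled ΔSPCC162.01c read 0.59, and replicate 2 labelled Δctr1 read -0.86. The replicate 1 arrays labelled Δsmd3 and Δpwi1 also stood apart at the mating-type gene mat3-Mc, with 0.07 and -0.40, against -7.43 to -2.84 on the other 17 arrays with a value. On those 17 arrays the deletion strain thus had far less RNA of this gene than wild type whichever gene was deleted, and in a mean over strains a difference in background between the deletion strains and wild type cannot be told apart from the effect of the deletions.

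Across all arrays the chromosome 1 end genes were shifted upward. Their median log2 ratio over all values was 0.18, against 0.0046 for all exon probes. On single arrays the median of the members was highest in Δpht1 with 0.68 and Δswd1 with 0.64, and lowest on the Δsmd3 replicate 1 array with -0.26. It exceeded that of all exon probes on 15 of 20 arrays. It also exceeded that of the 93 neighbours, the next 50 annotated genes toward the centromere at each end that had an exon probe, on 16 of 20 arrays. The neighbours had array medians between -0.15 and 0.03. Part of the members were strongly raised. Members above 1 made up 39.1% of those with a value in Δpht1, 29.9% in Δswd1 and 26.8% on Δctr1 replicate 1, while at most 4.49% of all exon probes were above 1 on any array. The share of members above 1 was larger than that of all exon probes on each of the 20 arrays, the smallest being 1.15% on Δpwi1 replicate 1, where 0.38% of exon probes were above 1. Members more than 1 below 0 were also more frequent than all exon probes on some arrays, as on Δsmd3 replicate 1 with 8.22% against 1.13%. On others they were not, as in Δpht1 with 0% against 2.23%.

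**Figure D1:**
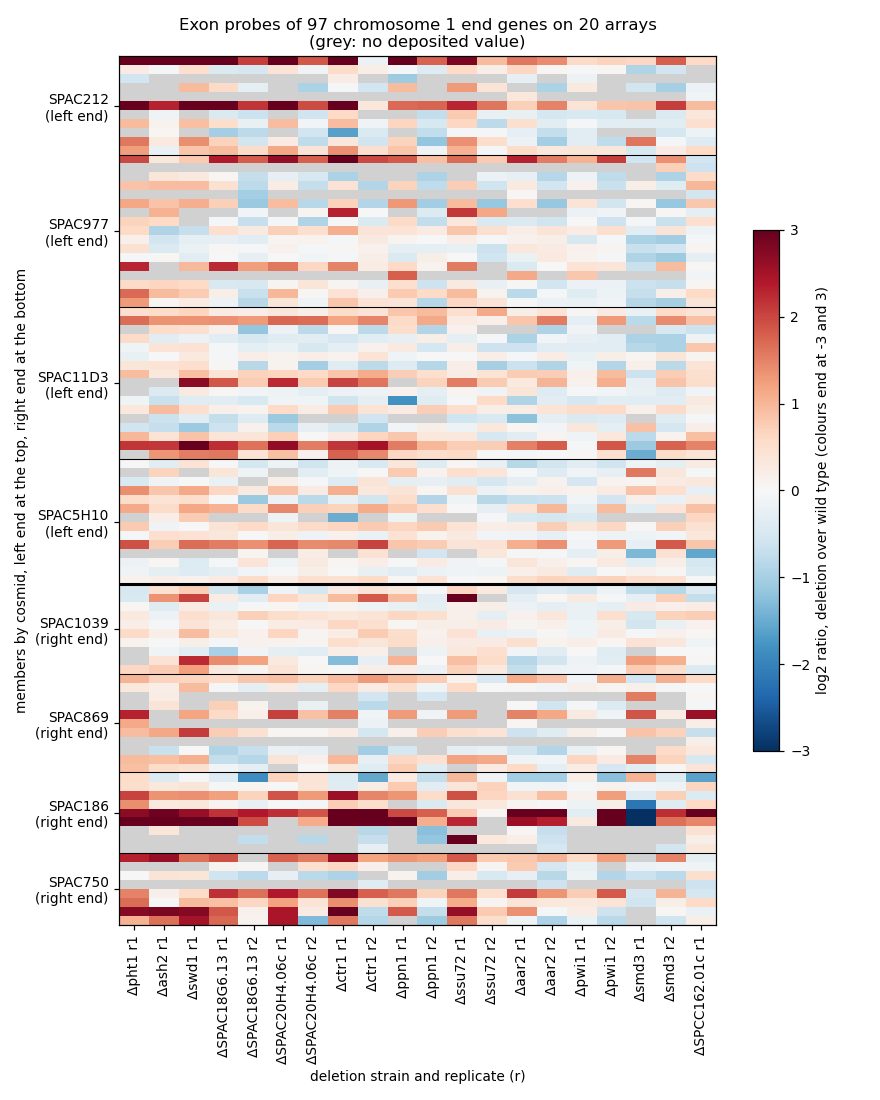
Log2 ratio, deletion strain over wild type, of the exon probe of each of the 97 members (1 row each, by cosmid and by order along the chromosome) on 20 arrays (columns, strain and replicate number r), with grey for no value and colours ending at -3 and 3. Rows of strong red recur over most columns in SPAC212, SPAC186 and SPAC750, and the Δsmd3 replicate 1 column is blue where gdt1 (-4.37) and SPAC186.06 (-3.55) are red elsewhere.

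**Figure D2:**
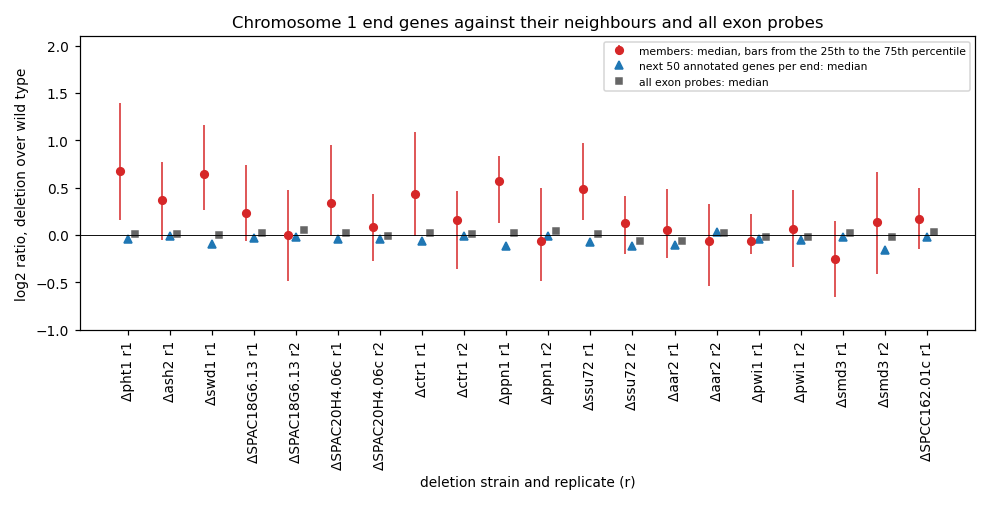
Median log2 ratio per array of the members (red circles, bars from the 25th to the 75th percentile), of the 93 neighbouring genes (blue triangles) and of all exon probes (grey squares), by strain and replicate number r. The members lie above the neighbours on 16 of 20 arrays, from 0.68 in Δpht1 down to -0.26 on Δsmd3 replicate 1.

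The mean over the 12 strains was tested first. It asks whether the average of the 12 strain means differed from wild type, so a few strains can carry a call. Of 63 members with a value in each strain, 35 rose and 8 fell in the limma fit at an adjusted p under 0.05. These were 55.6% and 12.7% of the members tested, beside 29.6% that rose and 27.4% that fell among all 4230 exon probes. Their median was 0.25, against 0.0059 over all probes. Of 76 neighbours tested, 17 rose and 24 fell, with a median of -0.04. Without the 6 arrays on which the deleted gene was not clearly low, 37 rose and 3 fell. No share of all probes was taken for these 6 arrays left out, nor for single arrays left out below. The fall count also moved when replicate 2 was left out of Δpwi1 (4), of ΔSPAC18G6.13 (5) or of ΔSPAC20H4.06c (5).

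The member with the largest mean lay on SPAC212, the cosmid at the left tip. The median over the tested members of SPAC212 was 0.54, below 0.85 on SPAC750 and 0.63 on SPAC186. tlh1, the telomere-linked helicase and the gene nearest the tip, averaged 2.64 over strains (SE 0.35, adjusted p = 0.000113). Its ratio was 6.42 in Δpht1, 4.41 in Δswd1 and 3.06 in Δash2. It was 5.98 and 1.86 on the ΔSPAC20H4.06c arrays, 5.67 and 2.08 on those labelled ΔSPAC18G6.13, and 3.74 and -0.18 in Δctr1. tlh1 was thus above 0 on 19 of 20 arrays, and replicate 1 was far above replicate 2 in these 3 strains. It read 3.051 and 1.77 in Δppn1, 2.81 and 0.94 in Δssu72, and 1.58 and 1.42 in Δaar2. The remaining arrays, of Δpwi1, Δsmd3 and ΔSPCC162.01c, lay between 0.58 and 1.78.

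SPAC212.06c, the seventh gene from the left tip, was likewise highest in Δpht1 and was above 0 on 20 of 20 arrays. Its mean was 2.29 (SE 0.22, adjusted p = 1.96e-05), with 5.73 in Δpht1, 5.05 and 1.96 in ΔSPAC20H4.06c, 3.77 in Δswd1, and 0.33 as its lowest value, on Δctr1 replicate 2. The third member of the cosmid that rose was SPAC212.01c with 0.54. The other 2 members of SPAC212 in this test, SPAC212.02 and SPAC212.04c, had means of 0.24 and 0.25 with adjusted p of 0.226 and 0.118. Each of them lay above 0 on 10 of 20 arrays. The 4 pseudogenes of SPAC212 had values on 2 to 19 arrays and medians between -0.43 and 0.10.

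On SPAC977, next to SPAC212, 3 of 10 tested members rose and 2 fell. Among all exon probes 29.6% rose and 27.4% fell in this mean, so neither count stands out. ftm1 averaged 1.32 (SE 0.15, adjusted p = 5.05e-05) and was above 0 on 18 of 20 arrays, the exceptions being the Δsmd3 replicate 1 array (-0.59) and the array labelled ΔSPCC162.01c (-0.58). dak2, a dihydroxyacetone kinase, averaged 0.40, and plb4, a phospholipase B, 0.19. The 2 that fell were SPAC977.12 with -0.17 and the sodium/proton antiporter gene nhe1 with -0.15, and fex1, a fluoride exporter gene that lies between them, had a mean of -0.08 (adjusted p = 0.121).

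SPAC11D3 and SPAC5H10, farther from the left tip, held both rises and falls, where 29.6% of all exon probes rose and 27.4% fell. On neither cosmid did the share of falls exceed that of all probes. On SPAC11D3, 6 of 12 tested members rose and 3 fell. SPAC11D3.17 averaged 1.68 (SE 0.18, adjusted p = 3.59e-05) and SPAC11D3.02c 1.06, each above 0 on 18 of 20 arrays. hsp3104, of the Hsp31/DJ-1 family, averaged 0.43 and was above 0 on 20 of 20 arrays, from 0.11 to 0.94. The falls were SPAC11D3.11c with -0.33, SPAC11D3.15 with -0.28 and SPAC11D3.04c with -0.26. On SPAC5H10, 5 of 11 rose, led by SPAC5H10.10 with 1.15 (SE 0.13, adjusted p = 4.67e-05). They included the alcohol dehydrogenase gene adh4 with 0.67 and pan6, for pantothenate synthesis, with 0.43. dgc1 and gmh2, a galactosyltransferase gene, fell with means of -0.18 and -0.14.

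At the right tip, 4 of 6 tested members of SPAC750 rose and 1 fell, where 29.6% of all exon probes rose and 27.4% fell. SPAC750.01 averaged 1.47 (SE 0.11, adjusted p = 1.59e-05), SPAC750.07c 1.25 (SE 0.36, adjusted p = 0.0118), ftm4 1.11 and SPAC750.06c 0.59. SPAC750.07c ranged from -0.77 on Δctr1 replicate 2 to 4.29 on Δctr1 replicate 1, a spread within 1 strain wider than its mean over strains, and its mean over the replicate 2 arrays was -0.12. SPAC750.03c fell with a mean of -0.27.

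SPAC186 held the adjacent pair gdt1 and SPAC186.06, the members with the widest spread over arrays. SPAC186.06 averaged 2.52 (SE 0.41, adjusted p = 0.000666) and ranged from -3.55 to 4.996 over 18 arrays. gdt1, which shares its name with a Golgi calcium and manganese transporter of budding yeast, averaged 2.28 (SE 0.39, adjusted p = 0.000523) and ranged from -4.37 to 4.40. Both were high in nearly all strains. gdt1 was 4.40 and 3.45 in Δaar2, 3.32 and 4.18 in Δctr1, 4.12 on the array labelled ΔSPCC162.01c, and between 2.62 and 2.91 in Δpht1, Δash2 and Δswd1. Its low values were -4.37 on Δsmd3 replicate 1 and -0.31 on Δpwi1 replicate 1, the arrays that also stood apart at mat3-Mc, against 2.22 and 3.93 on replicate 2 of the same strains. Δssu72 was low as well, with 0.76 and 0.05. With the replicate 1 arrays of Δsmd3 and Δpwi1 left out, the mean was 2.73 for gdt1 and 2.87 for SPAC186.06, and both still rose. SPAC186.03 also rose, with 1.05, and pfl9, a flocculin-like cell surface gene, had the lowest mean on the cosmid, -0.34 with an adjusted p of 0.0785.

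**Figure D3:**
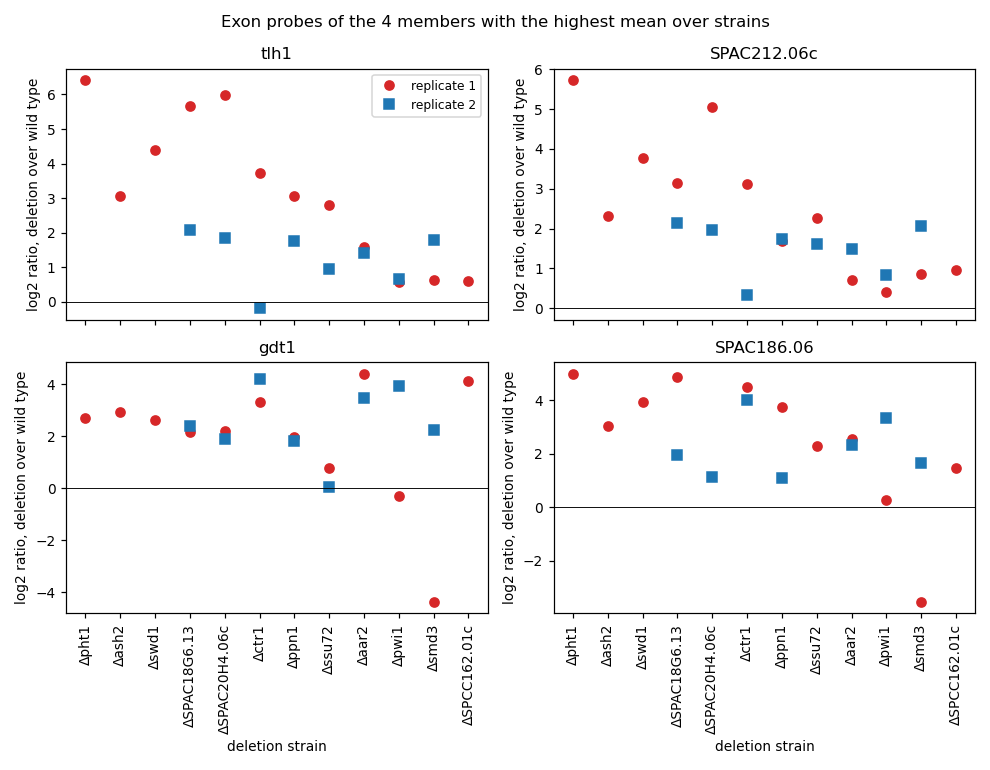
Log2 ratio, deletion strain over wild type, on each array (red circles, replicate 1; blue squares, replicate 2) for the 4 members with the highest mean over strains. tlh1 and SPAC212.06c peak in Δpht1 (6.42 and 5.73) with replicate 1 above replicate 2 in several strains, while gdt1 and SPAC186.06 lie above 1 in most strains and drop to -4.37 and -3.55 on Δsmd3 replicate 1.

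The 2 remaining cosmids of the right end changed less, and none of their tested members fell past the test. On SPAC869, 4 of 5 tested members rose and on SPAC1039 6 of 8, where 29.6% of all exon probes rose and 27.4% fell. On SPAC869 these were the cationic amino acid transporter gene cat1 with 0.66, the flavohemoprotein gene yhb1 with 0.45, the sulfate transporter gene sul2 with 0.44 and the proline permease gene put4 with 0.20, whose mean over the replicate 2 arrays was -0.059. On SPAC1039 they ran from klf1, a zinc finger protein gene, with 0.13, to SPAC1039.02 with 0.64. SPAC1039.01, the member farthest from the right tip, had the lowest mean of its cosmid, -0.12 (adjusted p = 0.0646).

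Ordered by position, the median of the means over strains, taken over tested members alone, was lower in each class farther from a tip. Within 10 annotated genes of the left tip the 3 tested members had a median of 2.29. Between 11 and 30 genes it was 0.20 over 12 members, and between 42 and 71 genes 0.098 over 22 members. At the right end the medians were 0.85 over 6 members within 10 genes, 0.44 over 11 members between 11 and 28, and 0.23 over 8 members between 36 and 45. Single members went against this order. SPAC11D3.17 and SPAC5H10.10, 57 and 68 genes from the left tip, rose by more than 1. SPAC186.06 and gdt1, 12 and 13 genes from the right tip, had higher means than the tested members of SPAC750. Of the 9 members nearest the left tip only 3 had a value in each strain. The untested ones had medians over their arrays between -0.48 and 0.10, so the 2.29 does not describe that class as a whole. The distance classes were drawn after the values were seen, and the medians carry no test.

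**Figure D4:**
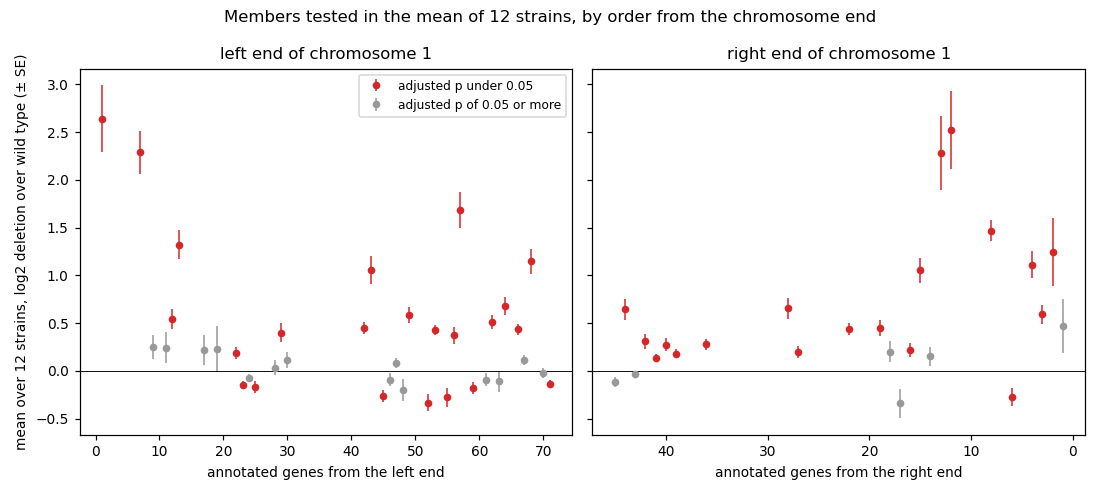
Mean over 12 strains of the log2 ratio (circle, with bars of 1 SE) of each tested member against its order from the left tip (left panel) or the right tip (right panel), in annotated genes, with red for an adjusted p under 0.05. tlh1 at the left tip (2.64) is highest, and members more than 40 genes from a tip lie mostly between -0.33 and 1.15, with SPAC11D3.17 at 1.68.

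The members also differed between the arrays numbered replicate 1 and those numbered replicate 2. The labels do not say whether a number marks a shared day or batch. The median of the members was higher on replicate 1 in 6 of 8 pairs, the exceptions being Δsmd3 and Δpwi1. In a fit with the number as a term, 17 of 87 members were higher and 1 was lower on replicate 1 arrays, against 8.57% and 7.24% of all 4901 exon probes. SPAC977.06 was higher on replicate 1 in 8 of 8 pairs, by 1.67 (SE 0.14, adjusted p = 0.00017). Its median was 0.83 on all replicate 1 arrays, unpaired strains included, and -1.08 on replicate 2. SPAC750.07c differed by 2.24 (7 of 7 pairs) and SPAC977.04 and SPAC212.02 by 1.06 and 1.09 (8 of 8 pairs each). tlh1 was higher on replicate 1 in 6 of 8 pairs, by 1.71 (SE 0.57), and did not pass the test (adjusted p = 0.0629).

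Within the replicate 1 arrays alone, 1 for each of 12 strains, 28 of 57 members rose in the mean over strains and 2 fell, against 19.7% and 16.1% of all exon probes. Within the replicate 2 arrays, of 8 strains, 26 of 67 rose and 14 fell, against 30% and 29.2%. The share of members that rose was thus well above that of all probes in the replicate 1 arrays, and less so in the replicate 2 arrays. Only the replicate 1 arrays hold Δpht1, Δash2, Δswd1 and ΔSPCC162.01c, so strain and number are mixed in this contrast. In these fits the test uses the spread between strains, not that between arrays of a strain. Of the 35 members that rose over all arrays, 23 of 32 tested also rose in the replicate 1 arrays, 22 of 32 tested in the replicate 2 arrays and 20 of 31 tested in both. The same arrays had entered the mean that picked the 35, so this overlap is not an independent check. tlh1 averaged 3.21 and 1.30, SPAC212.06c 2.50 and 1.52, and gdt1 1.88 and 2.49 in replicate 1 and replicate 2 arrays, each past the test. SPAC977.06 averaged 0.78 in replicate 1 and -0.98 in replicate 2 arrays, past the test in opposite directions.

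Δpht1, which lacks H2A.Z, gave the highest array median of the members, and 6 of 69 tested members rose with none falling, against 1.12% and 2.96% of 4393 exon probes. Besides tlh1 (6.42, SE 1.48, adjusted p = 0.0369) and SPAC212.06c (5.73, SE 0.95, adjusted p = 0.0105), these were SPAC750.01 with 2.32, the pseudogene SPAC977.13c with 2.27, dak2 with 1.71 and SPAC5H10.05c with 1.38. By cosmid, the median in Δpht1 was 1.71 on SPAC186, 1.58 on SPAC750, 1.25 on SPAC212, 0.95 on SPAC869 and 0.77 on SPAC977, and 0.43 on SPAC11D3, 0.15 on SPAC1039 and 0.14 on SPAC5H10, the 3 cosmids that start 36 or more genes from a tip. SPAC186 was above SPAC750, which lies nearer the same tip, and by distance from the left tip the median was 0.95 within 10 genes, 1.01 between 11 and 30 and 0.43 between 42 and 71. Tested directly against the mean of the other 11 strains, none of 63 members passed, and 0.0236% of all probes rose and 0.284% fell in that comparison. At an unadjusted p under 0.05, for which no share of all probes was taken, 9 members were higher and 1 was lower. Without either Δsmd3 array, 1 rise was called. tlh1 differed by 4.12 (SE 1.53, adjusted p = 0.291) and SPAC212.06c by 3.75 (SE 0.98, adjusted p = 0.12). Δpht1 has 1 array, and its spread was taken from the other strains. That array is numbered replicate 1. On the other replicate 1 arrays the median of the members ran from -0.26 (Δsmd3) to 0.64 (Δswd1), against 0.68 in Δpht1. The strains it was compared with also hold replicate 2 arrays, so the number and the deletion are partly mixed. The 6 rises became 17 when either Δsmd3 array was left out and 3 when either array of Δaar2 or of Δpwi1 was.

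In the Set1 complex strains the sulfate transporter gene sul2 stood above its level in all other strains. In Δswd1, 5 of 77 members rose and none fell, against 1.65% and 0.889% of all exon probes. They were SPAC11D3.09 with 2.70, the amino acid permease gene isp5 with 2.25, sul2 with 2.09 (SE 0.26, adjusted p = 0.00422), SPAC1039.02 with 2.03 and mmf2 with 1.22, and 3 of these 5 lie on SPAC1039. The count was 9 without either Δsmd3 array, 2 without either ΔSPAC18G6.13 array, and 3 without either array of Δaar2 or of Δssu72. In Δash2 no member of 81 passed the test, where 0.208% of all probes rose and 0.0416% fell. At an unadjusted p under 0.05, for which no share of all probes was taken, 13 members were higher and 5 were lower. Without either Δctr1 array, 1 rise was called.

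When Δash2 and Δswd1 together were tested against the other 10 strains, 1 of 63 members rose and 1 fell, against 0.0709% and 0.165% of 4230 probes. sul2 was 1.16 in Δash2 and 2.09 in Δswd1, against -0.69 to 0.92 on the arrays of the other strains, a difference of 1.43 (SE 0.19, adjusted p = 0.0128). Both Set1 complex arrays were above all others, with the Δpht1 array (0.92) next. plb4 was -0.90 in Δash2 and -0.69 in Δswd1. It was below 0 on only 2 arrays of the other strains, at -0.34 on Δsmd3 replicate 1 and -0.15 on the array labelled ΔSPCC162.01c, and reached 1.09 on Δctr1 replicate 1. The difference was -1.18 (SE 0.21, adjusted p = 0.0449), and the call was lost without any 1 array of Δaar2, Δppn1, Δpwi1, ΔSPAC18G6.13, ΔSPAC20H4.06c or Δssu72. Both arrays are numbered replicate 1, and among replicate 1 arrays alone no member passed in this comparison, as was so for 0% of all probes in either direction. tlh1 did not pass, with a difference of 1.31.

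Deletion of ctr1 gave the most calls in a single strain, 12 rises and no fall among 77 members, against 2.86% and 2.02% of all exon probes. ftm1 was 3.08 and 1.98, a mean of 2.53 (SE 0.46, adjusted p = 0.0256), and ftm4 was 2.77 and 1.80, a mean of 2.29. SPAC11D3.17 (2.33), SPAC186.03 (2.02), SPAC750.01 (1.87) and SPAC11D3.09 (1.81) followed, and the smallest rises were those of klf1 (0.56) and SPAC5H10.14c (0.52). tlh1 (3.74 and -0.18) and SPAC212.06c (3.12 and 0.33) were not among them. No rise was called with trend and robust estimation, nor for Δctr1 minus the mean of the other strains. None was left without replicate 1, and 7 rises and 3 falls were called without replicate 2, the array on which ctr1 itself was not clearly low. Leaving out 1 array of another strain gave 20 rises and 1 fall for Δsmd3, 7 rises for Δppn1, 4 for ΔSPAC18G6.13 and 5 for Δaar2, ΔSPAC20H4.06c or Δssu72.

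On the arrays labelled ΔSPAC18G6.13, 3 of 80 members rose and 2 fell, against 0.75% and 0.814% of all exon probes. ftm1 and ftm4 rose here too, by 2.098 and 1.92, as did isp5 with 1.42 and 1.20 on the 2 arrays. SPAC869.03c and SPAC1039.01 fell, with means of -0.80 and -0.76. None of these 5 passed in the strain minus the mean of the others, or when either of the strain's own arrays was left out. The rises numbered 8 without a Δsmd3 array, 5 without a Δctr1 array, and 1 without an array of Δaar2, Δppn1 or Δssu72, and 1 fall was called without an array of Δaar2, Δppn1 or ΔSPAC20H4.06c. In ΔSPAC20H4.06c no member of 73 passed, where 0.0651% of all probes rose and 0.0651% fell. At an unadjusted p under 0.05, for which no share of all probes was taken, 22 members were higher and none was lower. Rises were called when an array was left out, 7 without a Δsmd3 array, 2 without a Δctr1 array and 1 without replicate 2 of the strain itself.

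Of the 3′ end processing strains, Δppn1 had 2 rises among 70 members and no fall, against 1.83% and 1.46% of all exon probes. These were SPAC11D3.01c with 0.84 and 0.95 (mean 0.89, adjusted p = 0.0262) and pan6 with 0.65 and 0.78 (mean 0.72). Neither passed with trend and robust estimation, in Δppn1 minus the mean of the other strains, or when either Δppn1 array was left out. There were 6 rises and 1 fall without a Δsmd3 array, 1 rise without an array of Δpwi1, ΔSPAC18G6.13, ΔSPAC20H4.06c or Δssu72, and 1 fall without Δppn1 replicate 2. Δssu72 had no call among 76 members, where 0.425% of all probes rose and 0.468% fell. These shares are at the adjusted p, and none was taken for the unadjusted counts. At an unadjusted p under 0.05, 18 members were higher and 2 were lower in Δssu72, and 3 rises were called without a Δctr1 array, 2 without a Δsmd3 array or Δssu72 replicate 2, and 1 rise and 1 fall without Δssu72 replicate 1. SPAC186.08c, with values on 9 arrays, read 5.01 on Δssu72 replicate 1, 0.31 on replicate 2 and no more than 0.19 elsewhere.

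The arrays labelled Δsmd3 were the only ones on which more members fell than rose past the test, 8 against 3 of 72, where 2.22% of all exon probes rose and 1.66% fell. nhe1 gave -0.95 and -1.04, a mean of -0.99 (SE 0.13, adjusted p = 0.00398), and lay between -0.56 and 0.27 on the other 18 arrays. Both Δsmd3 arrays were below all others. SPAC977.12 (-0.98) and fex1 (-0.62), 2 and 1 genes from nhe1, fell as well. The others that fell were SPAC186.04c (-1.27), SPAC11D3.04c (-0.95), the major facilitator gene mfs2 (-0.89), SPAC1039.01 (-0.81) and SPAC212.10 (-0.74). isp5 with 1.27 and 1.07, yhb1 with 1.48 and 0.67, and sul2 with 0.85 and 0.69 rose. These replicates disagreed for many other members. Of 33 members that rose in the mean over strains and had a value, 22 were below 0 on replicate 1, while 3 of 35 were below 0 on replicate 2. In Δsmd3 minus the mean of the other strains no rise and 1 fall were called, and when either Δsmd3 array was left out, 1 rise and 2 falls were called. The falls numbered 5 without an array of Δpwi1, ΔSPAC18G6.13 or ΔSPAC20H4.06c, and 1 rise was called without an array of Δaar2, ΔSPAC18G6.13 or ΔSPAC20H4.06c.

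In Δaar2, Δpwi1 and on the array labelled ΔSPCC162.01c no member passed the test, among 84, 80 and 94 tested. Of all exon probes, 0.0208% rose and 0.0625% fell in Δaar2, 0.0424% and 0.0212% in Δpwi1, and 0.226% and 0.247% in ΔSPCC162.01c. At an unadjusted p under 0.05, 15 members were higher and 13 lower in Δaar2, 6 and 1 in Δpwi1, and 6 and 5 in ΔSPCC162.01c. No share of all probes was taken at this unadjusted cut. Without a Δsmd3 array, 9 rises and 1 fall were called in Δaar2 and 1 fall in ΔSPCC162.01c. The lack of calls in Δaar2 also depended on the fit. With the replicate number as a term, 9 members rose and 10 fell there, against 7.73% and 9.18% of all probes. The medians of the tested members were -0.03, 0.03 and 0.17 in these strains. gdt1 was nonetheless at 4.40 and 3.45 in Δaar2 and at 4.12 on the ΔSPCC162.01c array.

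**Figure D5:**
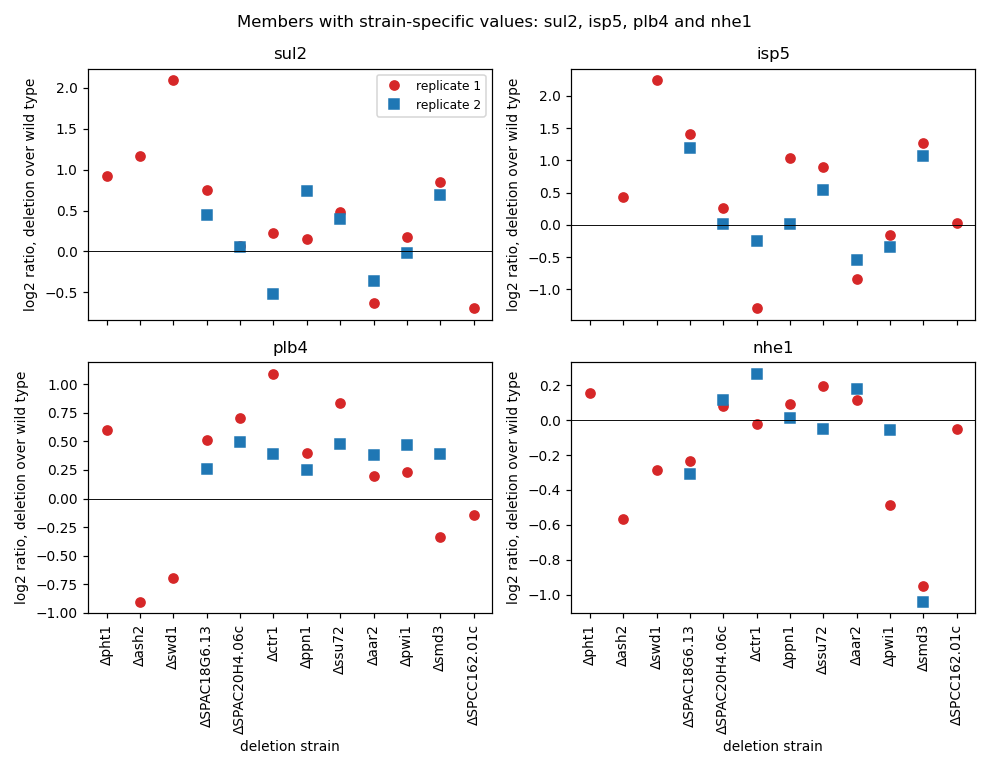
Log2 ratio, deletion strain over wild type, on each array (red circles, replicate 1; blue squares, replicate 2) for 3 transporter genes, sul2, isp5 and nhe1, and the phospholipase gene plb4. sul2 is highest in Δswd1 (2.09) and Δash2 (1.16), plb4 is lowest in the same strains (-0.69 and -0.90), isp5 is highest in Δswd1 (2.25), and nhe1 is lowest on both arrays labelled Δsmd3 (-0.95 and -1.04).

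By function, the members with a named role could be followed as groups. Of 11 members listed as transporters, 6 could be matched by symbol, and of the 5 tested in the mean over strains put4, sul2 and cat1 rose and nhe1 fell, where 29.6% of all probes rose and 27.4% fell. sul2 and isp5 rose in Δswd1, and on the arrays labelled Δsmd3 both rose again while nhe1 and mfs2 fell. Of 7 listed oxidoreductases 2 were matched, yhb1 and adh4, and both rose in the mean over strains. Of 4 listed carbohydrate enzymes 3 were matched, among which only dak2 was tested in that mean, and it rose. The alpha-galactosidase gene mel1 lacked a value in Δash2 and ranged from -0.13 to 2.60. None of 7 listed nitrogen and amide enzymes had a symbol, and they were not followed by role.

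Genes whose products silence chromosome ends or otherwise act on them, with related factors, were followed as a separate list. It is not a list of silencers alone. Of 35 listed factors of silencing and telomere capping, 32 were matched and 31 tested in the mean over strains, where 8 rose and 8 fell with a median of -0.02, beside 29.6% that rose, 27.4% that fell and a median of 0.0059 over all probes. The 8 falls include ash2, swd1 and pht1, whose means hold their own deletion strain, and the other 5 were chp2, swd2, mit1, set2 and clr1. In single strains none passed other than the deleted genes, ash2 in Δash2 (-2.37) and swd1 in Δswd1 (-5.09). In Δpht1, pht1 itself read -1.19 with an adjusted p of 0.0605.

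Few members have introns. There were 17 intron probes, for unspliced RNA, and 17 exon–exon junction probes, for spliced RNA, among the members. The intron probe of SPAC212.06c was above 0 on 20 of 20 arrays, from 0.48 on Δctr1 replicate 2 to 6.44 in Δpht1, with a mean over strains of 2.77 (SE 0.25, adjusted p = 2.19e-07). It was also highest in the strain where the exon probe was highest. It was the only member intron that rose in single strains, in Δpht1 (1 of 4 tested, against 1.92% of all intron probes), ΔSPAC18G6.13 (1 of 5, against 23.5%), ΔSPAC20H4.06c (1 of 3, against 14.8%), Δctr1 (1 of 4, against 23.7%) and Δppn1 (1 of 4, against 15.2%). The other member intron tested in the mean over strains, that of toe4, rose by 0.22. Of all 584 intron probes tested there, 61.6% rose and 5.99% fell.

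On the arrays labelled Δsmd3 none of 5 tested member introns rose or fell, against rises of 50% and falls of 0.649% of 2158 intron probes. At the junctions 4 of 12 members' probes fell and none rose, against 20.9% and 2.16% of 4024. The junction of nhe1 read -1.09 and -1.07, a mean of -1.08 (SE 0.17, adjusted p = 0.00167), close to its exon probe, while its intron probe read -0.47 and -0.38 and did not pass. The other falls were 2 junctions of klf1 (-0.78 and -0.84) and 1 of SPAC11D3.11c (-0.90). In the mean over strains 2 of 11 tested member junctions rose and 3 fell, against 15.5% and 43.3% of all.

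Some members read like another gene near a chromosome end. For each of 76 members with values on 15 or more arrays, the exon probe closest to it was sought by the mean absolute difference of log2 ratios over shared arrays. For 24 of them (31.6%) it belonged to a gene within 50 annotated genes of a chromosome end, while such genes made up 5.32% of exon probes. Of the 24, 16 were on chromosome II, 1 on chromosome III and 7 were other members, for which the same and the opposite end were not told apart. tlh1 was closest to tlh2, the helicase gene at a tip of chromosome II, which read 6.73 in Δpht1, and the mean difference was 0.48 over 20 arrays.

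The smallest differences were far below those between strains. SPAC977.12 differed from SPBPB8B6.05c by 0.042 on average over 20 arrays, ftm4 from SPBPB2B2.19c by 0.057 over 19 arrays and SPAC212.01c from SPBPB2B2.20c by 0.073 over 20 arrays. fex1 was closest to fex2 (0.13), plb4 to SPBC1348.10c (0.16) and SPAC212.06c to SPBCPT2R1.09c (0.44), and the gene table gave no position for that gene or for SPBPB2B2.20c. The fall of plb4 was also read by that partner, with -1.11 in Δash2 and -0.79 in Δswd1. gdt1 and SPAC186.06 were closest to 2 adjacent genes farther inside chromosome II, SPBC1271.08c and SPBC1271.07c, 128 and 129 genes from an end, with mean differences of 0.83 and 0.87. Whether a probe also binds RNA of the copy was not tested, as probe sequences were not used here, so a value may belong to either gene.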

How the data were processed

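Deletion strain and wild type RNA were hybridised together on 2-colour arrays with exon, intron and junction probes. The authors deposited log2 ratios per probe, already processed, and which normalisation they applied was not given in the sources used here. The 2 deposited tables held the same values in 304160 of 304160 cells, over 15208 rows, and 536 control rows were left out. Values were used as deposited, with no count or depth behind them, so that the number of arrays limits the precision.

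Ratios were fitted with limma 3.58.1 in R 4.3.3 with 1 mean per strain over 20 arrays, and each mean was tested against 0 with Benjamini-Hochberg adjustment over all exon probes with a value on each array of the strain, at 0.05. The mean of 12 strains, Δash2 and Δswd1 against the other 10, and Δpht1 against the other 11 were contrasts in the same fit over 4230 probes, and intron and junction probes were fitted likewise. The script was tested on simulated data. In the fit of 20 arrays, P-values measure the spread between arrays of the same strain, not that between strains. Strains with 1 array took their spread from the rest. Arrays with the same replicate number were treated as independent. The sources do not say whether the arrays share 1 wild type RNA preparation.

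The members and gene lists were chosen with earlier results of these data known. Genes named by rule were tlh1, the 5 largest rises and 5 largest falls in the mean over strains, up to 3 rises and 2 falls per strain, and the highest and lowest mean per cosmid. Other members were named after their values were seen. Alternatives were centring, the replicate number as a block, probes with values on all arrays, trend and robust estimation, each strain minus the others, and leaving out arrays. Gene symbols and order came from the RefSeq table (ASM294v3), in which 4775 exon probe names were found.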

Additional observations from a re-analysis of the deposited data

Results flagged for a closer look

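The effect of 2 members differed between the Set1 complex strains and the other strains in the test of that difference. For sul2 the difference of Δash2 and Δswd1 from the other 10 strains was 1.43, and it passed in 22 of 22 alternatives over both replicate numbers, with adjusted p between 0.00422 and 0.0337. For plb4 it was -1.18, and it passed in 10 of 22 alternatives, with adjusted p between 0.00941 and 0.0833. Each Set1 complex strain has 1 array, which every alternative kept, so dependence on either of these arrays was not tested. Neither member passed among replicate 1 arrays alone.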

How the results depend on the processing

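In the mean over strains, 33 to 37 members rose and 4 to 9 fell with 1 array left out, and tlh1, SPAC212.06c, gdt1 and SPAC11D3.17 passed in 22 of 22 alternatives each. Falls in that mean numbered 3 without the 6 arrays of doubtful label, 2 in replicate 1 arrays and 14 in replicate 2 arrays. Restriction to a replicate number and the removal of the replicate 1 arrays of Δsmd3 and Δpwi1 together were chosen after seeing the data.

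Counts in single strains depended on the arrays used. The lowest and highest with 1 array left out were 3 and 17 rises for Δpht1, 0 and 1 for Δash2, 2 and 9 for Δswd1, 0 and 8 for ΔSPAC18G6.13 (0 and 2 falls), 0 and 7 for ΔSPAC20H4.06c, 0 and 20 for Δctr1 (0 and 3 falls), 0 and 6 for Δppn1 (0 and 1 falls), 0 and 3 for Δssu72 (0 and 1 falls), 0 and 9 for Δaar2 (0 and 1 falls) and 1 and 3 for Δsmd3 (2 and 7 falls). ΔSPCC162.01c had 0 and 1 falls and Δpwi1 0 of either. For Δash2 and Δswd1 against the other strains there was 1 rise and 0 or 1 fall, and for Δpht1 against the others 0 or 1 rise.

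The difference between replicate 1 and replicate 2 correlated between strains above 0.1 in 26 of 28 strain pairs (lowest 0.018, median 0.332, highest 0.775). The rule for pairing asked for more than 0.1 in every pair and was not met. The main fit therefore has no term for what arrays of the same number shared. With the replicate number as a block, rises were 11 for Δpht1 (in brackets the share of all probes, 2.89%), 1 for Δash2 (0.624%), 10 for Δswd1 (238 of 4724 probes), 10 for ΔSPAC18G6.13 (4.5%), 8 for ΔSPAC20H4.06c (2.11%), 26 for Δctr1 (10.7%), 5 for Δssu72 (3.36%), 9 for Δaar2 (7.73%), 1 for Δpwi1 (0.466%), 9 for Δsmd3 (5.6%) and 1 for ΔSPCC162.01c (4.28%). Falls were 5 for ΔSPAC18G6.13 (2.89%), 3 for Δctr1 (7.83%), 2 for Δppn1 (4.89%), 1 for Δssu72 (149 of 4702 probes), 10 for Δaar2 (9.18%), 11 for Δsmd3 (4.94%) and 2 for ΔSPCC162.01c (6.54%). The mean over strains then had 36 rises and 12 falls (33.1% and 31.6% of all probes).

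Trend and robust estimation gave 3 rises for Δpht1 and Δswd1, 1 for ΔSPAC18G6.13 with 0 falls, 0 for Δctr1 and Δppn1, and 3 for Δash2 and Δswd1 against the rest. Each strain minus the others gave 0 rises for Δpht1, ΔSPAC18G6.13 (0 falls), Δctr1, Δppn1 and Δsmd3 (1 fall) and 1 for Δswd1. Probes on all 20 arrays gave rises of 3 for Δswd1, 7 for Δctr1 and 2 for Δash2 and Δswd1 against the rest, 1 fall for ΔSPAC18G6.13 and Δppn1, and a Δaar2 median of 0.11. Centring gave 1 fall for Δppn1 and 1 rise for Δssu72. No share of all probes was taken for the counts in these settings.

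Without the 6 arrays of doubtful label, rises were 15 for Δpht1, 1 for Δash2, 12 for Δswd1, 8 for ΔSPAC20H4.06c, 4 for Δppn1, 4 for Δssu72, 8 for Δaar2 (1 fall) and 1 for Δpht1 against the others, with 3 falls for Δctr1. Without the replicate 1 arrays of Δsmd3 and Δpwi1, rises were 18 for Δpht1, 3 for Δash2, 11 for Δswd1, 11 for ΔSPAC18G6.13, 12 for ΔSPAC20H4.06c, 21 for Δctr1 (1 fall), 11 for Δppn1 (1 fall), 2 for Δssu72, 9 for Δaar2 (1 fall), 2 for Δpwi1, 6 for Δsmd3 (3 falls), 1 for ΔSPCC162.01c (1 fall) and 1 for Δpht1 against the others. No share of all probes was taken with these arrays left out, so the counts do not show a gain particular to the members. Among replicate 1 arrays, Δash2 and Δswd1 against the rest gave 0 rises and 0 falls, as was so for 0% of all probes.

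SPAC1039.01 turned to 0.049 in the mean over strains without the 6 arrays of doubtful label, and in replicate 2 arrays the means of SPAC186.04c (-0.013), SPAC212.02 (-0.54), put4 (-0.059) and SPAC750.07c (-0.12) were below 0. The causes of these changes were not tested. With 1 or 2 arrays per strain, differences smaller than the spread between arrays could not be shown.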
